A study of Mus musculus with 12 samples.

Results

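The genes described here are the conjugating enzymes and carboxylesterases of the mouse colon. They are all array probes with exactly 1 gene symbol that begins with Ugt, Sult or Ces and a number, or with Gst, a class letter (a, k, m, o, p, t or z) and a number. This rule uses names and no measured value. It found 64 probes for 62 genes, of 28853 probes and 19938 genes with a single symbol on the array. They are 11 UDP-glycosyltransferase (UGT) probes, 16 sulfotransferase (SULT) probes, 20 glutathione transferase (GST) probes for 19 genes, and 17 carboxylesterase (CES) probes for 16 genes. Gstm3 and Ces5a have 2 probes each. A further 12 probes carry several symbols, among them the Ugt1a family, Gsta1 with Gsta2, and Gstp1 with Gstp2, and were left out.

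Colon RNA was measured on Affymetrix mouse gene arrays, 1 array for each mouse, in 4 groups of 3 mice. TSP-1-/- and WT mice received the carcinogen azoxymethane (AOM, 10 mg/kg, a single injection) and dextran sulfate sodium (DSS, 1.5% in the drinking water, 4 cycles of 7 days), and were killed 15 weeks after AOM. AOM mutates the colonic epithelium and DSS injures it, so that inflamed colons with tumors result. The methods speak of normal and diseased colonic tissue and do not say how much of each treated sample was tumor. Elsewhere the paper calls the treated array samples tumors. The other 2 groups were TSP-1-/- and WT mice given water only. All mice were C57BL/6 (C57/BL/6 in some labels), and the methods give males of 7 weeks at the start. TSP-1-/- mice lack thrombospondin-1, a secreted inhibitor of angiogenesis, in every cell and from birth, through a targeted mutation of Thbs1 that still allows a transcript. No group therefore shows an effect that begins in the adult colon or in 1 cell type. The labels of the water arrays carry the protocol of another DSS study, so it is not known whether the water mice belonged to the same experiment.

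UGTs, SULTs and GSTs attach glucuronic acid (or another sugar), sulfate or glutathione to drugs, bile pigments, steroids, carcinogens and products of lipid oxidation. The conjugates are more soluble and leave the cell through ATP-driven transporters. Carboxylesterases split esters and amides, among them prodrugs and stored lipids. In the gut these enzymes are made mainly by the differentiated epithelium, where they form a first barrier against what is absorbed.

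Every value is a log2 value relative to a baseline of its own probe, so a value says how an array stands against the others and not how abundant a transcript is, and levels of different genes cannot be set against each other. For the same reason the markers of colon could not be checked for presence or absence. A pair of AOM/DSS arrays stood apart. TSP-1-/- AOM/DSS replicate 3 had an SD over all probes of 0.753, against 0.293 to 0.453 on the other 11 arrays, and a median of 6.36 over 9 pancreatic acinar genes. WT AOM/DSS replicate 1 had a median of -2.77 over 6 genes of anterior position (Hox genes and Osr2), near the -3.11 to -2.48 of the TSP-1-/- AOM/DSS arrays and far from the 0.43 and 0.58 of the other WT AOM/DSS arrays. The Thbs1 probe read 0.81, 0.85 and 0.93 on the TSP-1-/- AOM/DSS arrays, against 0.27, -0.16 and -0.07 on the WT AOM/DSS arrays (difference 0.85 ± 0.28 SE, adjusted p = 0.0730). It therefore does not separate the genotypes the way a deleted gene would.

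After AOM/DSS, many of these enzymes were lower in TSP-1-/- colons. A probe was called when its limma p, adjusted over all 28853 probes, was under 0.05 and the difference was at least 2-fold. Of the 64 probes, 14 (21.9%), for 13 genes, were called lower in TSP-1-/-, where 1.05% of all probes were. None was called higher, where 1.73% of all probes were, and 2.78% of all probes were called in either direction. At an unadjusted p under 0.05, 31 of the 64 probes were lower and 5 higher, and 32.3% of all probes passed that limit in either direction. All 3 TSP-1-/- arrays lay below all 3 WT arrays for 25 of the 64 probes, against 10.7% of all probes, and above them for 4, against 20.2%. The median difference of the 64 probes was -0.43, and that of all probes was 0.13. In whole-tissue RNA, fewer cells of a type and less RNA per cell cannot be told apart.

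The 14 calls fell on all 4 classes. They were 7 of 17 carboxylesterase probes, 4 of 11 UGT probes, 2 of 20 GST probes and 1 of 16 SULT probes. The classes also differed in shape. The UGT median difference was -1.12 and the GST median -0.62. The carboxylesterase median was only -0.02, because the 7 called probes had differences of -2.62 to -1.45 and the other 10 lay between -0.04 and 0.50. The SULT median was -0.14. Leaving out arrays moved the count of 14. When TSP-1-/- AOM/DSS replicate 3 was dropped it was 1 (Ces2b), with 27 of all probes called lower. When a WT AOM/DSS array was dropped it was 20 for replicate 1 (622 of all probes), 4 for replicate 2 (100 of all probes) and 1, again Ces2b, for replicate 3 (22 of all probes). Without both arrays that stood apart, a setting chosen after the data were seen, there were 16 (451 of all probes). A limma fit to only the 6 AOM/DSS arrays called no member and 6 of all probes, with a lowest adjusted p of 0.108 among the members. At an unadjusted p under 0.05 it found 25 members lower and 2 higher, against 7.84% of all probes lower and 15.2% higher.

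**Figure D1:**
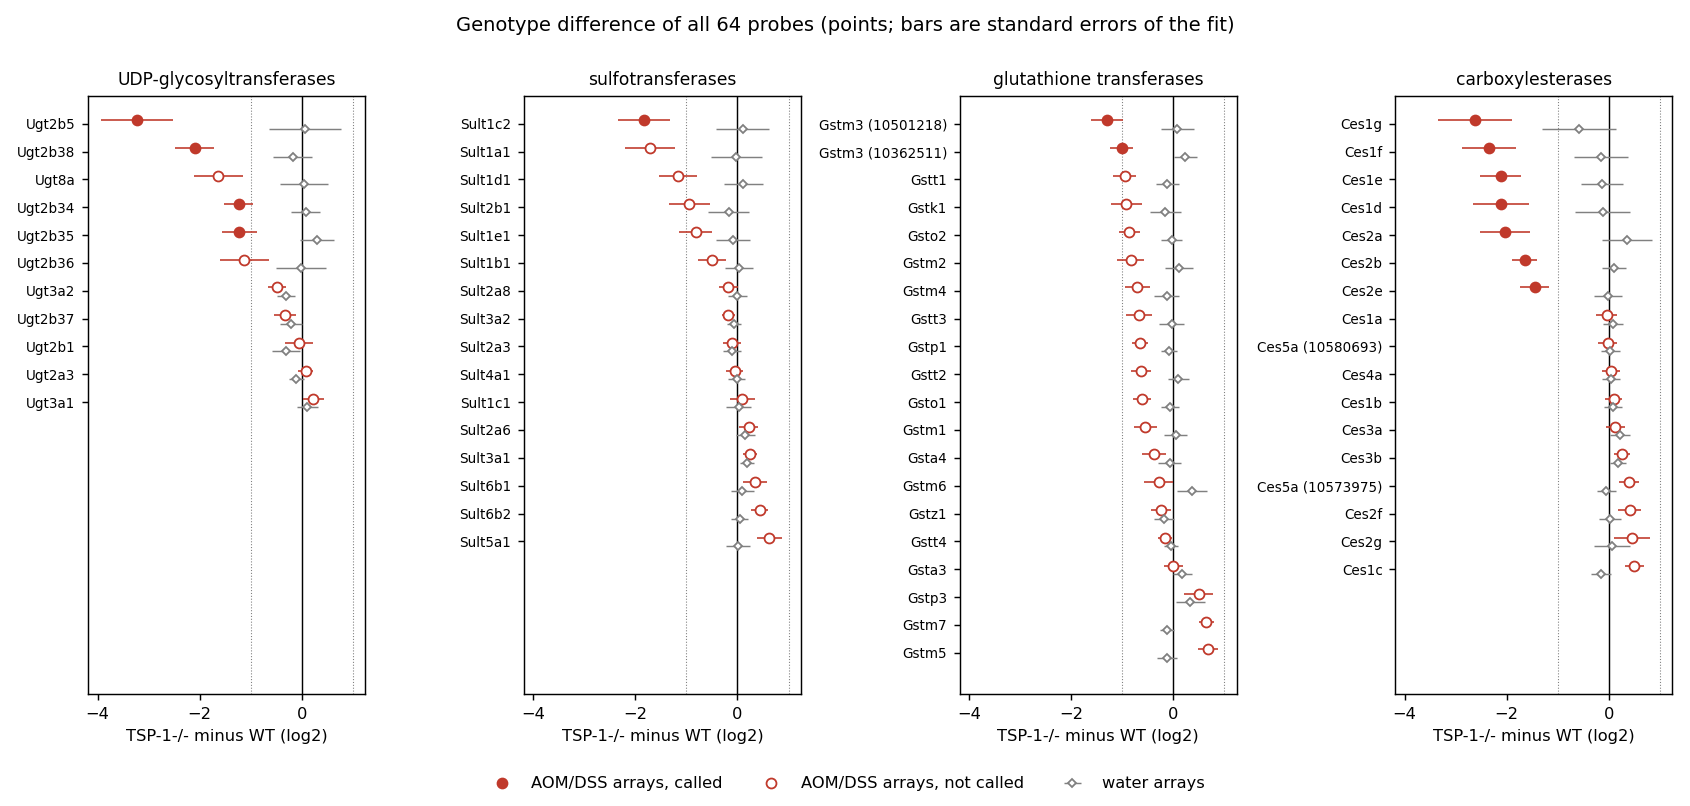
Genotype difference (TSP-1-/- minus WT, log2 units) of all 64 probes in the 4 enzyme classes, with standard errors of the fit as bars, on the AOM/DSS arrays (red circles, filled where called) and on the water arrays (grey diamonds), with dotted lines at a 2-fold difference. The 14 called probes all lie to the left, the carboxylesterases break into 7 called probes and a rest near 0, and the water differences stay between -0.58 and 0.37.

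Among the UGTs, which transfer sugars from UDP-sugars, the 4 calls were all Ugt2b genes. Ugt2b enzymes glucuronidate steroids, bile acids and drugs in the endoplasmic reticulum. All 7 Ugt2b differences were below 0, as were 10721 of all 28853 probes. The Ugt2b median was -1.22, though Ugt2b1 and Ugt2b37 had only -0.06 and -0.33. The promoters of 3 of them are shown because they share 1 block of sequence while their differences do not match. The sequences are from RefSeq (GRCm38.p6) and end at or just before the annotated start. Capitals mark the longest run that Ugt2b5, Ugt2b38 and Ugt2b37 hold in common, 62 bases. For Ugt2b36 they mark the longest unbroken piece of that run, 22 bases. All 4 genes lie on the minus strand.
Ugt2b5, chr5:87140341-87140428: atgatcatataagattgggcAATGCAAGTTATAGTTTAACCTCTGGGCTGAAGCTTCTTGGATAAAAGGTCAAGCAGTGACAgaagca
Ugt2b38, chr5:87424205-87424294: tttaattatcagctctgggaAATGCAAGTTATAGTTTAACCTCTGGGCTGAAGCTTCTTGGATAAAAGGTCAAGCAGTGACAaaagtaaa
Ugt2b37, chr5:87254804-87254893: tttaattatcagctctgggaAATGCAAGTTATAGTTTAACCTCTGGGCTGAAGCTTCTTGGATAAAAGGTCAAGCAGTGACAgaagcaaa
Ugt2b36, chr5:87092556-87092606: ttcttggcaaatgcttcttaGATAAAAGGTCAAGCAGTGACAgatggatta

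Of 32851 mouse promoters of 300 bases, only those of Ugt2b5, Ugt2b37 and Ugt2b38 hold the 62-base run on either strand. Over the 250 bases before the start, Ugt2b38 was 84.8% identical to Ugt2b37 and 81.5% identical to Ugt2b5, and Ugt2b36 was 57.6% to 60.8% identical to the other 3. The shared run contains AGGTCA, the half-site letters that nuclear receptors bind. These letters, on either strand, are in 16.3% of all promoters and in 12 of the 66 promoters of these enzymes (18.2%), 5 of them Ugt2b genes (Ugt2b5, Ugt2b35, Ugt2b36, Ugt2b37 and Ugt2b38). A match is a description of letters and not of a bound site.

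Ugt2b5 had the largest difference of all 64 probes. Its values were -3.87, -3.32 and -3.69 on the TSP-1-/- AOM/DSS arrays, against -2.71, 0.67 and 0.86 on the WT AOM/DSS arrays, a difference of -3.23 ± 0.71 (SE, 9.36-fold lower, adjusted p = 0.0276). The genotypes did not overlap, but WT replicate 1 lay nearer to the TSP-1-/- mice than to the other WT mice. Without it the difference was -4.38. The call was lost when WT replicate 2 or 3 or TSP-1-/- replicate 1 or 3 was left out, with differences of -3.19 to -2.60.

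Ugt2b38, which shares the promoter block, read -2.57, -2.12 and -2.34 in TSP-1-/- and -1.45, 0.52 and 0.18 in WT (difference -2.10 ± 0.38, adjusted p = 0.0179). WT replicate 1 was again the low WT array, and without it the difference was -2.70. Ugt2b37, with the same block, read -0.54, -0.62 and -0.46 in TSP-1-/- and -0.81, -0.02 and 0.18 in WT (difference -0.33 ± 0.21, adjusted p = 0.296), and its genotypes overlapped. Ugt2b36, with the shorter match, read -1.07, -0.97 and -1.59 in TSP-1-/- and -1.65, 0.66 and 0.73 in WT (difference -1.12 ± 0.48, adjusted p = 0.133). Here WT replicate 1 was the lowest of the 6 arrays, and without it Ugt2b36 was called, at -1.91 (adjusted p = 0.000405). Array probes of such similar genes can bind transcripts of their neighbours, so these 4 differences may not be independent of each other.

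Ugt2b34 and Ugt2b35 were called lower by about the same amount. Ugt2b34 read -0.72, -0.49 and -1.75 in TSP-1-/- and -0.24, 0.40 and 0.57 in WT (difference -1.23 ± 0.29, adjusted p = 0.0312). Ugt2b35 read -0.91, -0.25 and -2.07 in TSP-1-/- and -0.12, 0.29 and 0.28 in WT (difference -1.22 ± 0.34, adjusted p = 0.0485). In both, TSP-1-/- replicate 3 was the lowest array, and without it the differences were -0.85 and -0.72 and neither was called. Ugt2b34 also lost the call without WT replicate 2 or 3 (-1.16 and -1.07), and Ugt2b35 kept it with only 2 of the 12 arrays left out. Ugt8a makes galactosylceramide, a membrane lipid, and is no drug-conjugating enzyme. It read -2.02, -2.21 and -1.97 in TSP-1-/- and -1.88, -0.05 and 0.64 in WT (difference -1.63 ± 0.47, adjusted p = 0.0522), just outside the call. Ugt3a1, Ugt2a3 and Ugt2b1 had differences of 0.23, 0.08 and -0.06, with adjusted p of 0.439, 0.745 and 0.896, and Ugt3a2 had -0.49 (adjusted p = 0.0945).

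The carboxylesterases held 7 of the 14 calls, and they separated by gene. The Ces1 enzymes hydrolyse triacylglycerol, cholesteryl esters and ester drugs in the endoplasmic reticulum. Ces1d, Ces1e, Ces1f and Ces1g were called lower, and Ces1a, Ces1b and Ces1c were not, with differences of -0.04, 0.10 and 0.50 (adjusted p 0.892, 0.720 and 0.102).

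Ces1g, a hepatic and intestinal lipid hydrolase, read -2.57, -1.82 and -2.79 in TSP-1-/- and -1.88, 1.11 and 1.44 in WT (difference -2.62 ± 0.72, 6.15-fold lower, adjusted p = 0.0473). The genotypes overlapped, since WT replicate 1 lay just below TSP-1-/- replicate 2, and without WT replicate 1 the difference was -3.67. Ces1f, a triacylglycerol hydrolase, read -1.99, -1.27 and -3.67 in TSP-1-/- and -0.94, 0.52 and 0.51 in WT (difference -2.34 ± 0.53, adjusted p = 0.0292). Ces1e, known as egasyn because it retains beta-glucuronidase in the endoplasmic reticulum, read -1.83, -1.07 and -2.85 in TSP-1-/- and -0.59, 0.60 and 0.60 in WT (difference -2.12 ± 0.41, adjusted p = 0.0191). Ces1d, the triacylglycerol hydrolase of fat and liver, read -1.98, -1.43 and -3.04 in TSP-1-/- and -1.35, 0.68 and 0.55 in WT (difference -2.11 ± 0.55, adjusted p = 0.0399). In Ces1d, Ces1e and Ces1f all TSP-1-/- arrays lay below all WT arrays, with TSP-1-/- replicate 3 lowest and WT replicate 1 the lowest WT array. Without TSP-1-/- replicate 3 the differences of Ces1d, Ces1e and Ces1f were -1.67, -1.65 and -1.66, and none was called. Without WT replicate 3 they were -1.82, -1.92 and -2.10, and again none was called. Ces1d and Ces1g lie closest to the threshold and kept the call with only 3 of the 12 arrays left out in turn.

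The Ces2 enzymes are the intestinal carboxylesterases, whose human counterpart activates irinotecan. Ces2a, Ces2b and Ces2e were called lower and Ces2f and Ces2g were not. Promoter stretches of the 4 genes with an entry are shown because they share a short run at a similar place while only Ces2a and Ces2e were called. Capitals mark the longest run that Ces2a, Ces2e and Ces2f hold in common, and for Ces2g the 9 bases of it that match. All 4 lie on the plus strand (RefSeq, GRCm38.p6).
Ces2a, chr8:104733912-104733971: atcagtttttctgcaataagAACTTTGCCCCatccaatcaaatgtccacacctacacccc
Ces2e, chr8:104926159-104926218: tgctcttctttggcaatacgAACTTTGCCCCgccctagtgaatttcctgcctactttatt
Ces2f, chr8:104947243-104947302: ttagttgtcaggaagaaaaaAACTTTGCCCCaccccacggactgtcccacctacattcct
Ces2g, chr8:104961581-104961640: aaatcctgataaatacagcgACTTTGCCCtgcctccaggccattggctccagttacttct

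Counted from the start, the capitals begin at -71 in Ces2a, -81 in Ces2e, -93 in Ces2f and -117 in Ces2g. The 11-base run is in 6 of 32851 promoters (0.0183%), on either strand, and the other 3 belong to Gm15638, Gm52828 and Txnrd3. It contains CAAAGT, the core letters of HNF4 sites, read on the other strand. CAAAGT on either strand is in 14.4% of all promoters and in 15 of the 66 promoters of these enzymes (22.7%). The letters thus stood in Ces2 genes with and without a called difference.

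Ces2b read -1.39, -1.45 and -2.08 in TSP-1-/- and -0.57, 0.18 and 0.42 in WT (difference -1.65 ± 0.24, 3.13-fold lower, adjusted p = 0.00987). The genotypes were clearly separate, and it alone of the 14 called probes kept its call with each of the 12 arrays left out in turn, with a highest adjusted p of 0.0433. Ces2e read -1.20, -1.11 and -1.87 in TSP-1-/- and -0.59, 0.12 and 0.65 in WT (difference -1.45 ± 0.28, adjusted p = 0.0191). Ces2a read -1.12, -1.65 and -3.22 in TSP-1-/- and -0.77, 0.10 and 0.78 in WT (difference -2.03 ± 0.48, adjusted p = 0.0334). Neither overlapped between genotypes, and both lost the call without TSP-1-/- replicate 3, at -1.21 for Ces2e and -1.42 for Ces2a, and without WT replicate 3, at -1.16 and -1.66.

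Ces2f read -0.39, -0.70 and -0.21 in TSP-1-/- and -0.82, -0.36 and -1.34 in WT (difference 0.41 ± 0.22, adjusted p = 0.211). Ces2g read 0.77, 0.41 and 0.32 in TSP-1-/- and 0.74, -0.25 and -0.37 in WT (difference 0.46 ± 0.35, adjusted p = 0.376). Both overlapped between genotypes. Ces1c, the carboxylesterase of mouse plasma, had the largest positive difference of the class, 0.50 ± 0.19 (adjusted p = 0.102). Ces3a, Ces3b, Ces4a and the 2 probes of Ces5a had differences of 0.13, 0.26, 0.04, 0.40 and -0.02, with adjusted p of 0.176 or more.

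**Figure D2:**
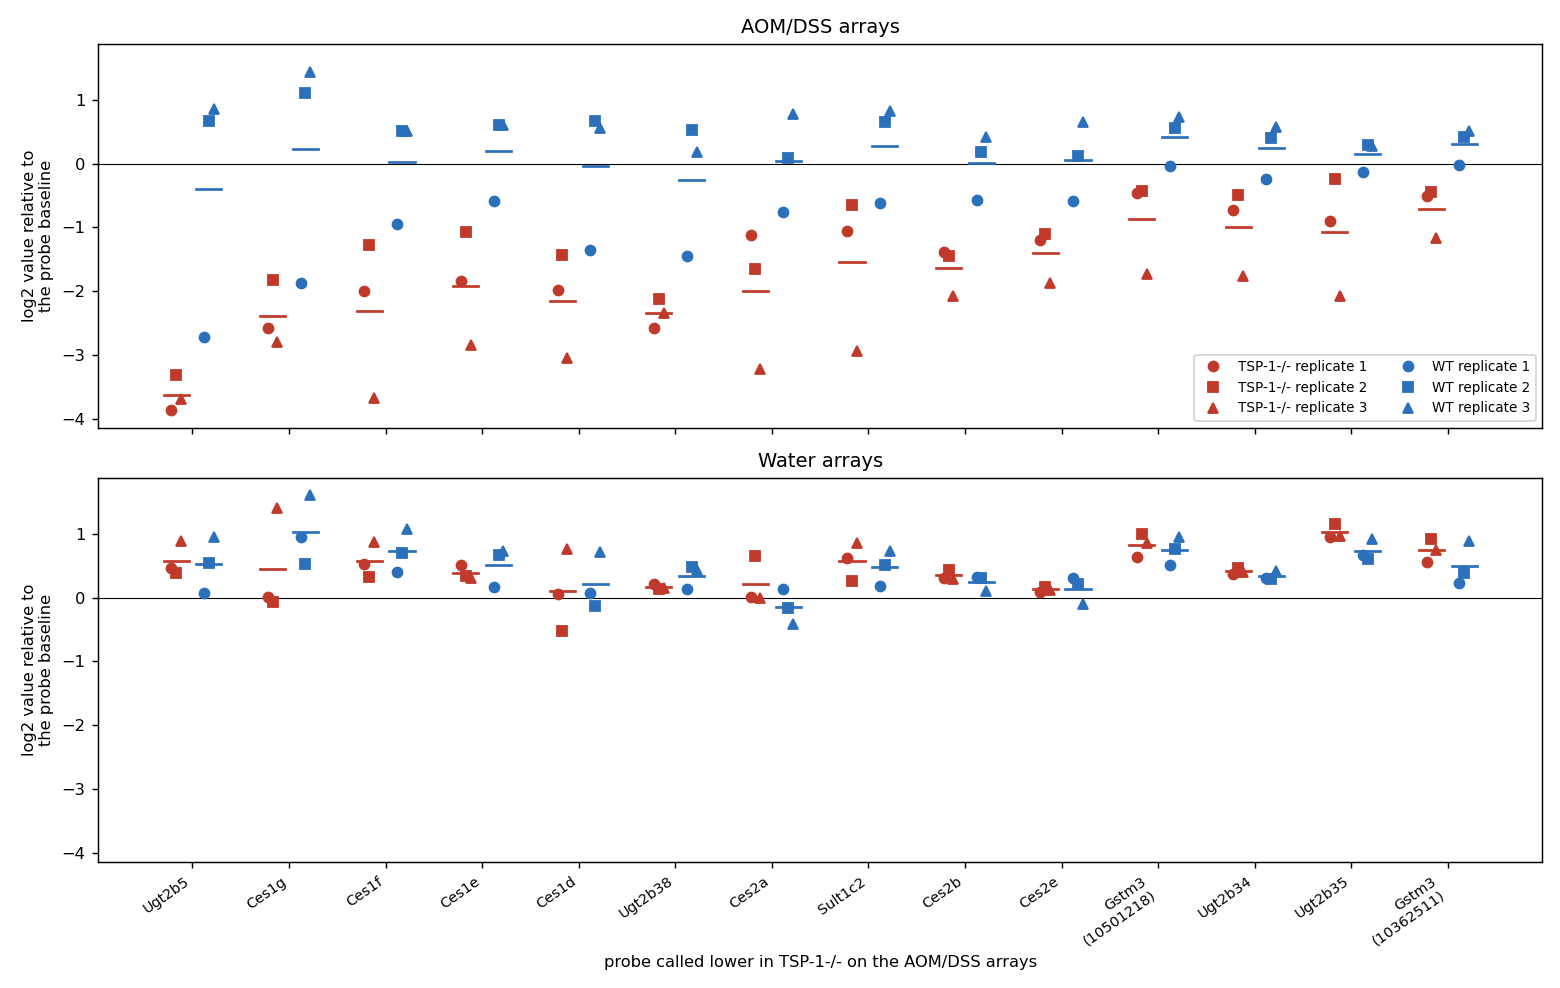
Log2 value relative to the probe baseline of the 14 probes called lower in TSP-1-/-, on each AOM/DSS array (top) and each water array (bottom), with TSP-1-/- in red, WT in blue, a symbol for each replicate and a bar at the group mean. On the AOM/DSS arrays WT replicate 1 is the lowest WT array for all 14 probes and TSP-1-/- replicate 3 the lowest of the 6 arrays for 12, and the water arrays of both genotypes lie close together.

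The GSTs couple glutathione to reactive electrophiles. Of the 19 genes only Gstm3, a cytosolic mu-class enzyme, was called lower, with both of its probes. The first probe read -0.46, -0.43 and -1.73 in TSP-1-/- and -0.04, 0.57 and 0.74 in WT (difference -1.29 ± 0.32, adjusted p = 0.0359). The second read -0.51, -0.44 and -1.16 in TSP-1-/- and -0.01, 0.42 and 0.51 in WT (difference -1.01 ± 0.23, adjusted p = 0.0298). Neither overlapped between genotypes. Without TSP-1-/- replicate 3 the 2 differences were -0.86 and -0.78, and without WT replicate 3 they were -1.13 and -0.91, and neither probe was called in either case.

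Gstt1, Gsto2 and Gstp1 had adjusted p under 0.05 but less than a 2-fold difference. Gstt1, of the theta class, read -0.98, -0.72 and -1.38 in TSP-1-/- and -0.60, 0.07 and 0.28 in WT (difference -0.95 ± 0.22, adjusted p = 0.0331). Gsto2, an omega-class enzyme that reduces dehydroascorbate, had a difference of -0.86 (adjusted p = 0.0355), and Gstp1, the pi-class enzyme, one of -0.66 (adjusted p = 0.0345). In all, 16 of the 20 GST differences were below 0, as were 10721 of all 28853 probes. Every TSP-1-/- array lay below every WT array for 10 GST probes, and for 10.7% of all probes.

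Against this, 2 GSTs had the largest positive differences of the 64 probes. Gstm7 read 0.72, 0.79 and 0.94 in TSP-1-/- and 0.49, 0.05 and -0.05 in WT (difference 0.65 ± 0.14, 1.57-fold, adjusted p = 0.0279). Gstm5 read 0.45, 0.64 and 0.73 in TSP-1-/- and 0.17, -0.02 and -0.39 in WT (difference 0.68 ± 0.20, 1.61-fold, adjusted p = 0.0511). Neither overlapped between genotypes and neither reached 2-fold. Their promoters, with that of Gsta3, were the only 3 of the 66 (4.55%) to hold TGACNNNGC, the core of the antioxidant response element through which Nrf2 acts, on either strand. These letters are in 12.4% of all promoters. The difference of Gsta3 was 0.01 (adjusted p = 0.982). Gstp3 had 0.50 (adjusted p = 0.240), and Gstm6 had -0.28 (adjusted p = 0.509).

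Of the SULTs, which sulfate phenols, steroids and catecholamines in the cytosol, Sult1c2 alone was called lower. It read -1.06, -0.65 and -2.93 in TSP-1-/- and -0.62, 0.65 and 0.82 in WT (difference -1.83 ± 0.51, 3.56-fold lower, adjusted p = 0.0490). Sult1a1, the main phenol sulfotransferase, read -0.89, -0.71 and -3.0 in TSP-1-/- and -0.37, 0.27 and 0.65 in WT (difference -1.71 ± 0.49, adjusted p = 0.0523). Sult1d1, a catecholamine sulfotransferase of mice, read -0.73, -0.65 and -2.35 in TSP-1-/- and -0.52, 0.16 and 0.13 in WT (difference -1.16 ± 0.38, adjusted p = 0.0663). All 3 had separate genotypes, and in all 3 TSP-1-/- replicate 3 lay far below the other TSP-1-/- mice. Without that array the differences were -1.14, -0.98 and -0.61. The call of Sult1c2 held with only 2 of the 12 arrays left out in turn.

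Sult1e1, the estrogen sulfotransferase, and Sult2b1, which sulfates cholesterol, had differences of -0.82 and -0.94 (adjusted p 0.112 and 0.130). The other end of the class held Sult5a1, Sult6b2, Sult6b1 and Sult3a1, with 0.62, 0.43, 0.34 and 0.24 (adjusted p 0.101, 0.0921, 0.302 and 0.233). The Sult1 subfamily had a median difference of -0.99 over 6 probes, against -0.14 over 4 Sult2 probes and 0.39 over 2 Sult6 probes.

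Most of these genes lie in clusters of copies, and the differences were not uniform within a cluster. The order of genes is that of RefSeq, and each probe was placed by its gene and not by its own position. As with Ugt2b, array probes of similar copies can bind transcripts of their neighbours, so differences within a cluster may not be independent. On chromosome 8 the Ces1 genes follow each other from Ces1a to Ces1g and then Ces5a. The first 3 had differences from -0.04 to 0.50, the next 4 from -2.62 to -2.11, and Ces5a -0.02 and 0.40. Elsewhere on chromosome 8 Ces2a and Ces2b are neighbours and both were called. Further along the same chromosome Ces2e was called and the next 5 of these enzymes (Ces2f, Ces2g, Ces3a, Ces3b and Ces4a) were not. The cluster of 11 genes on chromosome 5, which holds the Ugt2b genes, Ugt2a3, Sult1b1, Sult1d1 and Sult1e1, had 4 called genes that were not all neighbours, with Ugt2b37 and Ugt2a3 between Ugt2b5 and Ugt2b38. On chromosome 3 the differences of the Gstm cluster went from 0.68 and 0.65 at Gstm5 and Gstm7 through -0.28 at Gstm6 and the called -1.29 and -1.01 of the 2 Gstm3 probes to -0.83, -0.54 and -0.70 at Gstm2, Gstm1 and Gstm4. These orders were read after the values were seen and no test was made of them.

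**Figure D3:**
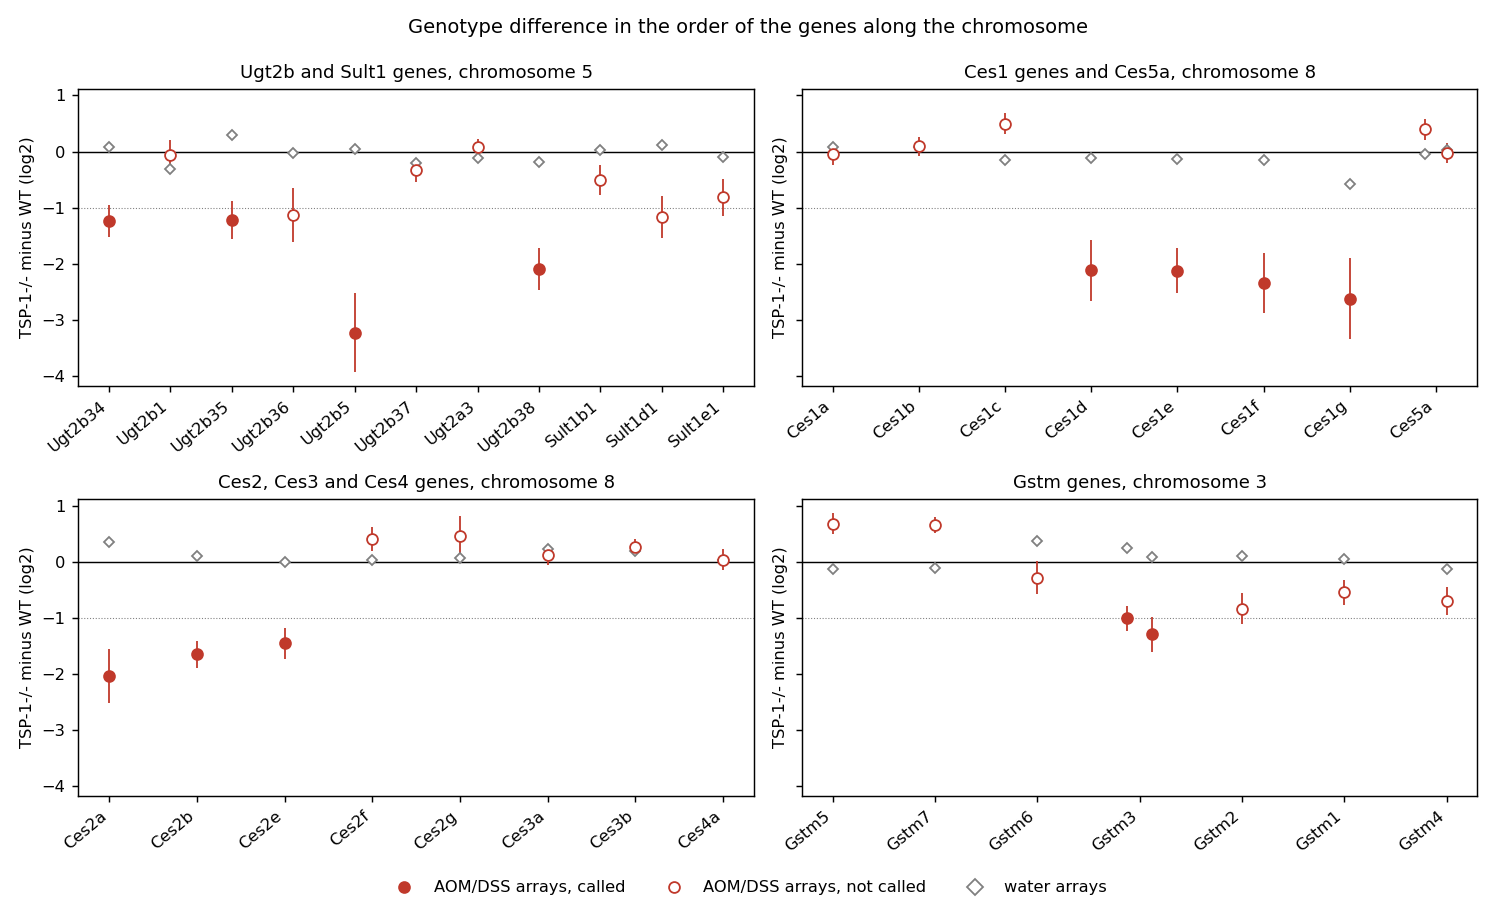
Genotype difference (TSP-1-/- minus WT, log2 units) of clustered genes in their order along the chromosome, with standard errors as bars, on the AOM/DSS arrays (red circles, filled where called) and on the water arrays (grey diamonds). Ces1d, Ces1e, Ces1f and Ces1g stand next to each other between -2.62 and -2.11, Ces1a, Ces1b and Ces1c beside them lie between -0.04 and 0.50, and the water differences of the same genes lie between -0.58 and 0.08.

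In mice given water no difference between the genotypes passed the test. None of the 64 probes was called by limma (0% of 28815 probes were), and none had an unadjusted p under 0.05, which 0.999% of all probes did. The differences ran from -0.58 (Ces1g) to 0.37 (Gstm6). All 3 TSP-1-/- arrays lay below all 3 WT arrays for 2 probes (2.88% of all probes) and above them for 3 (2.29%). Ces1g, with the largest water difference, read 0.01, -0.07 and 1.41 in TSP-1-/- and 0.96, 0.53 and 1.60 in WT. Its genotypes overlapped, though TSP-1-/- was below WT at each replicate number, a pairing that the test does not use. Ugt2b5 read 0.46, 0.39 and 0.88 in TSP-1-/- and 0.08, 0.54 and 0.95 in WT (difference 0.06 ± 0.71). This SE is the same as on the AOM/DSS arrays, because the fit pools all 4 groups. The SDs of Ugt2b5 in TSP-1-/- and WT were 0.27 and 0.43 on the water arrays, and 0.28 and 2.01 on the AOM/DSS arrays. Ces2b read 0.31, 0.44 and 0.30 in TSP-1-/- and 0.32, 0.31 and 0.10 in WT (difference 0.10 ± 0.24). The other classes had their largest water differences at Gstm6 (0.37), Ugt2b1 (-0.31) and Sult3a1 (0.19).

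Whether the genotype difference itself differed between AOM/DSS and water was tested as a difference of differences, which uses the same AOM/DSS arrays again. No member was called (0.00694% of all probes were), while 22 probes were lower and 3 higher at an unadjusted p under 0.05, which 15.4% of all probes passed. The lowest adjusted p was 0.147, for Ces2b (-1.75). For Ugt2b5 the value was -3.28 (adjusted p = 0.249). Hence the 14 calls on the AOM/DSS arrays were not shown to differ from the water arrays. Without WT AOM/DSS replicate 1 there were 7 calls among the members and 289 among all probes, against 2 with every array. The 7 were at Ugt2b5 (-4.44), Ces1g (-3.09), Ugt2b38 (-2.52), Ugt8a (-2.40), Ces2b (-2.04), Ugt2b36 (-1.89) and Ces2e (-1.77), all lower.

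The treatment could not be tested directly, because the water arrays are on another baseline than the AOM/DSS arrays. By the methods, the baseline of the AOM/DSS arrays is the median of all 12 samples, which was not checked. If so, a probe with all 6 AOM/DSS arrays on 1 side of 0 had all 6 water samples on the other (exact 2-sided permutation p = 0.00216 before any adjustment). All 6 AOM/DSS arrays lay on the low side for 4 probes, at Ces2f, Ces5a, Sult2a3 and Sult3a2, and for 4.02% of all probes. They lay on the high side for Gstt4, and for 2.02% of all probes. These shares of 64 probes are near those of all probes. None of the 14 called probes was among them. Because every treated mouse is in 1 array set and every water mouse in the other, AOM/DSS and the array set cannot be told apart.

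The genes that supply the transferases with their donors were in part lower too. UDP-glucuronic acid is made by Ugdh and carried into the endoplasmic reticulum by Slc35d1, and sulfate is activated by the Papss enzymes. Of 12 such genes 3 were called lower (1.05% of all probes were) and none higher (1.73%) on the AOM/DSS arrays. The list median was -0.70, against 0.13 for all probes. Slc35d1 read -1.47, -0.96 and -1.87 in TSP-1-/- and -0.64, 0.98 and 0.93 in WT (difference -1.86 ± 0.41, adjusted p = 0.0279). Ugdh read -1.31, -1.22 and -2.17 in TSP-1-/- and -0.87, 0.36 and 0.35 in WT (difference -1.51 ± 0.34, adjusted p = 0.0295). Papss2 had a difference of -1.12 (adjusted p = 0.0434). None of the 3 overlapped between genotypes. Among 6 microsomal and other GSTs, Mgst1, the membrane-bound glutathione transferase, was called lower (-1.04, adjusted p = 0.0259). None of 7 other conjugating enzymes was called, where the histamine and thiopurine methyltransferases Hnmt and Tpmt had the largest differences (-0.80 and -0.66, adjusted p 0.0369 and 0.104). Of 11 probes for 10 other hydrolases 4 were called lower, namely Bche (butyrylcholinesterase, -1.82), Nceh1 (a cholesteryl ester hydrolase, -1.43), Pon1 (paraoxonase, -1.40) and Ephx2 (soluble epoxide hydrolase, -1.30). None of 4 probes for enzymes that remove conjugates was called, with Gusb (beta-glucuronidase) at 0.53 and Arsb (an arylsulfatase) at -0.52 and -0.24.

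The listed ATP-driven efflux transporters were split. Of 9 genes 2 were called higher (1.73% of all probes were) and 4 lower (1.05%). Abcc4, which exports conjugates and cyclic nucleotides, read 1.63, 1.56 and 1.75 in TSP-1-/- and 0.85, -0.04 and -0.01 in WT (difference 1.38 ± 0.21, 2.60-fold higher, adjusted p = 0.00987). Abcc2, the apical exporter of glucuronides and glutathione conjugates, read 1.64, 0.79 and 1.90 in TSP-1-/- and -0.05, 0.58 and -0.04 in WT (difference 1.28 ± 0.26, adjusted p = 0.0217). Abcc3, the basolateral exporter of glucuronides, read -0.56, -0.63 and -1.55 in TSP-1-/- and 0.12, 0.58 and 0.97 in WT (difference -1.47 ± 0.26, adjusted p = 0.0170). None of the 3 overlapped between genotypes. Abcb1b and Abcb1a, the mouse P-glycoproteins, and Abcg2, which exports sulfates, were called lower at -1.33, -1.10 and -1.10 (adjusted p 0.0368, 0.0444 and 0.0343).

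Among 18 regulators of these enzymes 4 were called lower (1.05% of all probes were) and none higher (1.73%), with a list median of -0.80. They were the lipid sensor Ppara (-1.84, adjusted p = 0.0453), Nr5a2 (-1.33, adjusted p = 0.0341), the bile acid receptor Nr1h4 (-1.22, adjusted p = 0.0292) and Pparg (-1.06, adjusted p = 0.0325). Of 17 probes for 15 Nrf2 target genes outside the transferases, Nqo1, a quinone reductase, was called lower. It read -0.89, -0.92 and -1.10 in TSP-1-/- and 0.00, 0.72 and 1.04 in WT (difference -1.56 ± 0.23, adjusted p = 0.00987). Slc7a11, which imports cystine for glutathione synthesis, was called higher at 3.04 ± 0.71 (8.20-fold, adjusted p = 0.0319). Without TSP-1-/- replicate 3 the only calls in these lists were Nqo1, Abcc3 and Abcc4, and without WT replicate 3 only Nqo1 and Abcc4. With WT replicate 2 left out they were Nqo1, Mgst1, Abcc2, Abcc3 and Abcc4. On the water arrays no gene of these 8 lists had an unadjusted p under 0.05.

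Several lists of cell type and position markers also differed between the genotypes on the AOM/DSS arrays, not always on the same arrays as the enzymes. Their part in the differences of the enzymes was not tested. Of all probes, 1.05% were called lower and 1.73% higher in this comparison. Over 12 markers of absorptive colonocytes the medians of replicates 1, 2 and 3 were -0.24, -0.13 and -1.76 in TSP-1-/- AOM/DSS. In WT AOM/DSS they were 0.15, 0.11 and 0.23, and 2 markers were called lower in TSP-1-/-, Slc51b (-2.29) and Car1 (-1.09). Over the 14 called enzyme probes, which were picked by this same comparison, the median of WT replicate 1 was -0.60. The other WT arrays had 0.52 and 0.59. Over the 50 enzyme probes not called, WT replicate 1 had -0.16, and the other WT arrays -0.01 and 0.01. Over 9 epithelial markers the array medians were -0.46 to 0.00 in TSP-1-/- and -0.05 to 0.18 in WT, with none called. Over 6 goblet cell markers they were -0.59 to 0.05 in TSP-1-/- and -0.05 to 0.20 in WT, with none called. Neutrophil and monocyte markers were higher in TSP-1-/-, with medians of 1.95 to 3.43, against -0.69 to 0.15 in WT (3 of 8 called higher). On the water arrays none was called, but TSP-1-/- replicate 1 had a median of 0.41 over these markers, against -3.28 to -2.90 on the other 5 arrays. B and plasma cell markers had medians of 0.37 to 3.92 in TSP-1-/- and -0.21 to 0.38 in WT (2 of 5 called higher). Without TSP-1-/- replicate 3 no neutrophil, monocyte, B cell or plasma cell marker was called, and Slc51b was the only colonocyte marker still called.

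Adipocyte markers, of which 2 of 6 were called lower, had medians of -1.75 to -1.07 in TSP-1-/-, against -1.24, 1.11 and 1.40 on the WT AOM/DSS arrays. The genes of anterior position ran the same way, with 1 of 6 (Osr2) called lower. No gene of either list was called when TSP-1-/- replicate 3 or WT replicate 2 or 3 was left out. Osr2 was also not called when TSP-1-/- replicate 1 or 2 was left out. Without WT replicate 1, 5 of 6 genes were called lower in each of the 2 lists, as were 622 of all probes. In both WT replicate 1 stood with the TSP-1-/- arrays, as it did for 7 of the 14 called probes (Ugt2b5, Ugt2b38, Ces1d, Ces1f, Ces1g, Ces2e and Sult1c2), where its value was closer to the mean of the TSP-1-/- arrays than to that of the other 2 WT arrays. This held for 44.7% of all probes called lower. TSP-1-/- replicate 3, with the pancreatic acinar median of 6.36 (0.03 and 0.07 on the other TSP-1-/- AOM/DSS arrays, and -0.18 to -0.11 in WT), was the lowest of the 6 arrays for 33 of the 64 probes and for 21.2% of all probes. On the water arrays TSP-1-/- replicate 1 had an acinar median of 1.30, and the other 5 arrays had -0.03 to 0.07. Hepatocyte markers, of interest because the liver makes many of these enzymes, had medians of 0.07 to 0.27 in TSP-1-/- and -0.23 to -0.06 in WT, with Alb called higher (2.79) and Cyp2e1 lower (-2.83). Smooth muscle markers had medians of -0.80 to 0.16 in TSP-1-/- and -0.05 to 0.33 in WT, with none called. Genes of posterior position had medians of -0.32 to 0.21 in TSP-1-/- and -0.49 to -0.11 in WT, again with none called. Their single differences ran from -1.83 to 4.19, with 2 below 0 and 4 above. Without WT replicate 1, 2 of the 6 posterior genes (Hoxd10 and Hoxd11) were called lower.

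**Figure D4:**
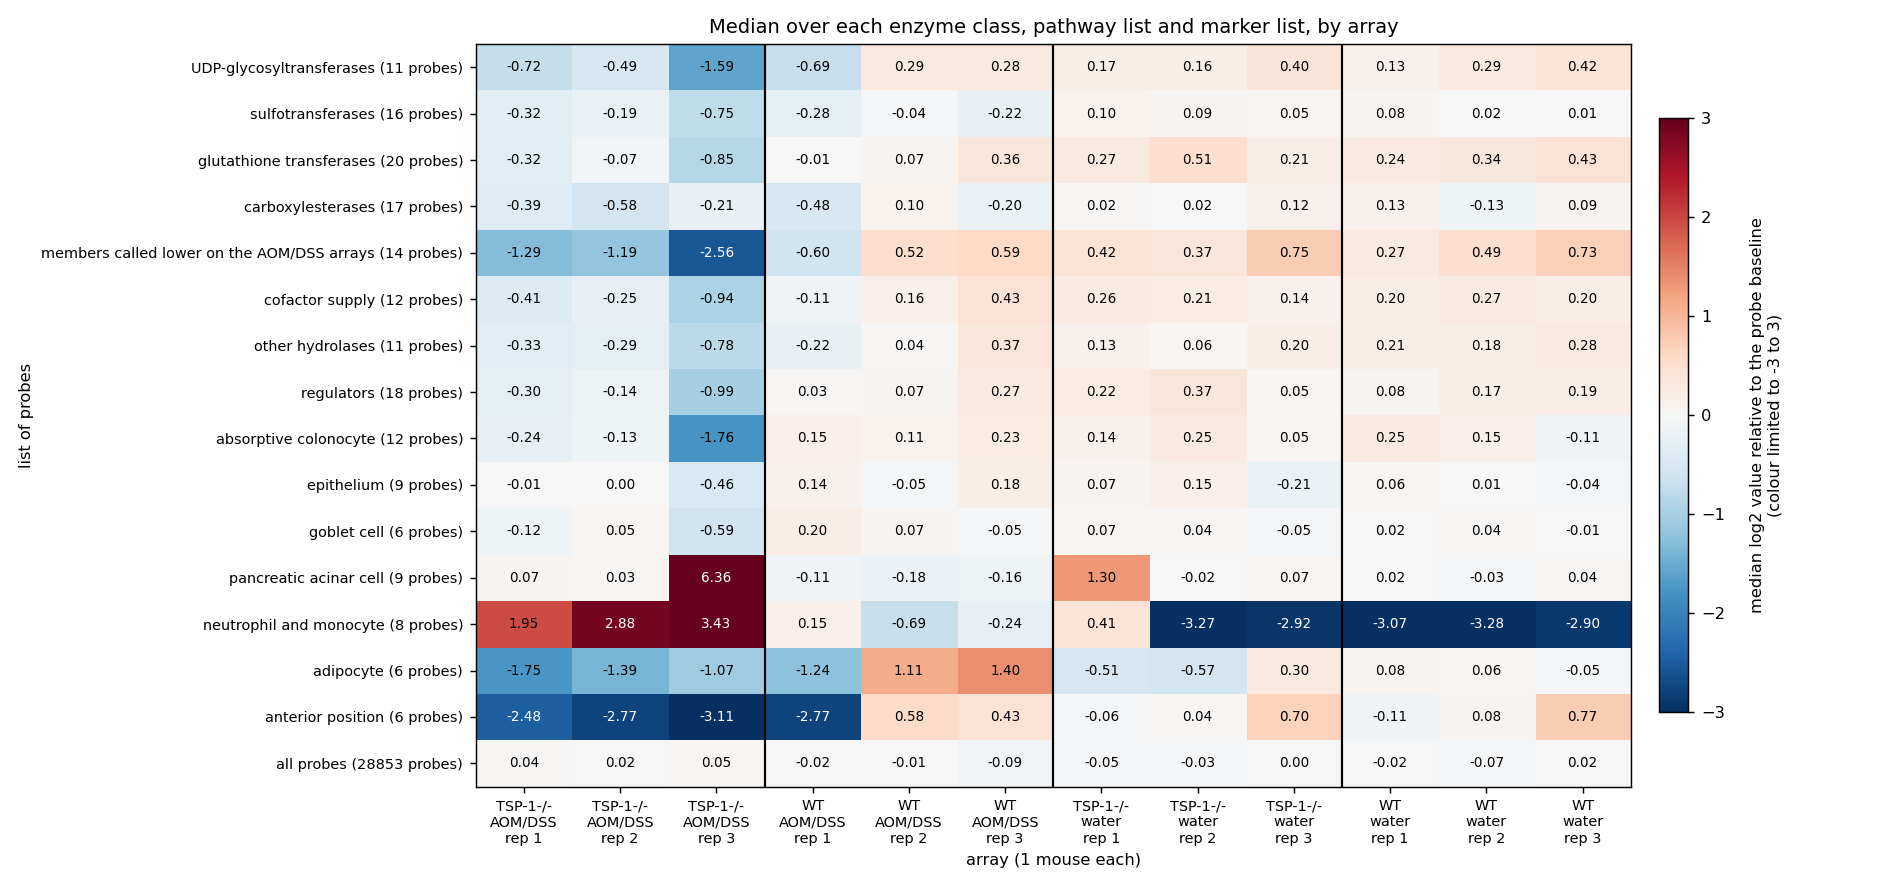
Median log2 value relative to the probe baseline over each enzyme class, pathway list and marker list (rows), on each of the 12 arrays (columns, 1 mouse each). The 14 called probes have medians of -2.56 to -1.19 on the TSP-1-/- AOM/DSS arrays and of -0.60, 0.52 and 0.59 on the WT AOM/DSS arrays, where the anterior position genes have -2.77, 0.58 and 0.43.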

How the data were processed

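Total RNA of colon tissue was labelled with the NuGEN Ovation kit and hybridised to mouse gene arrays, 3 mice in each of 4 groups. The deposited log2 values were made by the authors with PLIER16 and quantile normalization, and were set relative to a baseline that the methods give as the median of all 12 samples. The AOM/DSS values are on the scale of the study's own supplementary means. There 376 of 377 genes match exactly 1 probe by both AOM/DSS group means (within 0.0001), and none matches by the water means. This match does not by itself show which baseline was used. The median of 12 samples is taken from the methods. The values were used as deposited. Arrays give no read depth, and 3 arrays in each group limit the precision. The annotation gives 21789 probes 1 gene symbol, 1621 several and 5443 none. The 64 Entrez IDs were all found in the RefSeq table, and 54 of the 62 genes have a RefSeq promoter (250 bases before to 50 after the start). The files name no genome build, so RefSeq served only for names, gene order and promoters. Protein sequences were not used here.

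Genotypes were compared with limma 3.58.1 (R 4.3.3) in 1 fit of 4 group means to 28853 probes on 12 arrays (28815 with water values), with Benjamini-Hochberg adjustment over all probes. The study's own test was an analysis of variance over the 4 conditions. Its filter on low signals could not be applied to relative values, and its filter on variability was run as an alternative. The labels call the arrays biological replicates. The fit pools the spread of both array sets, which was unequal (median pooled SD 0.241 on the AOM/DSS and 0.169 on the water arrays). Each SE given is this pooled one, the same for a member in both array sets, and does not measure the spread of either set alone. Promoters and counts were read with Python 3.11.15, pandas 2.3.3 and numpy 2.4.6.

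Genes named with values are every member called, the 3 largest positive and 3 largest negative AOM/DSS differences of each class, the largest water difference of each class, the called genes of each list (or the 2 largest), and Thbs1. Ugt2b36, Ugt2b37, Gsta3, Gsto2, Gstp1, Sult1e1, Sult2b1 and the other members outside this rule were named after their values were seen, as were the sequences shown. The members and all lists were chosen with earlier results of these data known. Some genes of the lists were not analysed here.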

Additional observations from a re-analysis of the deposited data

How the results depend on the processing

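The members called lower on the AOM/DSS arrays numbered 14, and none was called higher. Quantile normalization of the 12 arrays again gave 4 called lower (105 of all probes) and array weights 7 (130 of all probes). A limma fit to only the 2 groups of the comparison gave 0 (1 of all probes), with 25 members lower and 2 higher at an unadjusted p under 0.05. With no fold minimum 1 member (Gstm7) was called higher, as were 1551 of all probes. Leaving out each array in turn gave 1 to 20 members called lower (22 to 622 of all probes). The count was 1 when TSP-1-/- AOM/DSS replicate 3 was dropped, 1 when WT AOM/DSS replicate 3 was, and 4 when WT AOM/DSS replicate 2 was. Dropping TSP-1-/- AOM/DSS replicate 1, TSP-1-/- water replicate 2 or WT water replicates 1 or 2 gave 8 or 9 (182 to 302 of all probes). For the difference of differences, array weights gave 1 call (82 of all probes), leaving out each array in turn 0 to 7 (1 to 289 of all probes), and leaving out both arrays that stood apart, which was chosen after the data were seen, 12 (402 of all probes). The probes with all 6 AOM/DSS arrays below the baseline numbered 4 to 8 with 1 array left out, and those above it 1 to 4, or 2 after centring and 2 with quantile normalization run on each array set alone. The count of 0 on the water arrays held in each alternative. Over all probes, scaling moved the split of higher against lower calls, which was 500 and 302, to 396 and 414 when each array was centred, 259 and 391 with quantile normalization run on each array set alone, and 78 and 105 with it run on all 12. The members numbered 17, 15 and 4 called lower in these settings. The median difference of all probes was 0.13, 0.05, 0.02 and 0.02 in these 4 settings, and that of the members -0.43, -0.51, -0.48 and -0.40. Reversed signs were found only for differences near 0. With 1 array left out, Gstm6 ranged over -0.440 to 0.0011 (the highest without TSP-1-/- AOM/DSS replicate 3), Ugt2b1 over -0.225 to 0.207 (above 0 also without that array, at 0.199) and Ugt2a3 over -0.0158 to 0.185. Ugt2b1 had 0.0677 with array weights. Ugt2a3 had -0.0029 after quantile normalization again and -0.0056 with that step run on each array set alone. The cause was not tested. Deviations of same-numbered arrays correlated at 0.03, -0.04 and -0.02 on the AOM/DSS arrays and at 0.09, 0.28 and 0.40 on the water arrays. Not every pair passed 0.1 in either set, so the numbers were not taken to pair the mice. What same-numbered water arrays share was thus left in the spread of the main test, which can hide small water differences. With the replicate block 13 members were called lower on the AOM/DSS arrays (285 of all probes), and the water count stayed at 0.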
